A study of Mus musculus with 20 samples.

Results

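The genes described here are 9 RNA-binding proteins, other than HuR, that read AU-rich, U-rich, GU-rich or Pumilio elements in mRNAs: ZFP36, ZFP36L1, ZFP36L2, HNRNPD, KHSRP, TIA1, TIAL1, CELF1 and PUM2. They were chosen by name, ignoring case, and each was found 1 time in the human table of 60607 genes and 1 time in the mouse table of 55335 genes. HuR, the product of ELAVL1, was lowered by an adenovirus carrying an shRNA, and the RNA of whole liver was sequenced after 7 days and a 4 h fast. The humanized set held 4 HuR KD livers and 4 LacZ livers of TK-NOG mice. The WT set held 6 HuR KD and 6 LacZ livers of male C57BL/6 mice. Every mouse, controls included, received 2000000000 pfu of adenovirus intravenously, and the shRNA was directed at the HuR of the species measured.

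All TK-NOG mice, LacZ controls included, were immune-deficient NOG mice with a herpes simplex thymidine kinase transgene under the mouse albumin promoter. They received ganciclovir at 25 mg/kg when 8 to 9 weeks old, which kills the cells that carry the kinase, and later 1000000 cryopreserved primary human hepatocytes by way of the spleen. Mice with more than 0.5 mg/ml human albumin in serum, measured 8 to 12 weeks after the transplant, were used. The non-parenchymal cells of these livers are those of the host, and the humanized table lists human genes only.

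AU-rich elements are runs of A and U in the 3′UTR that shorten the life of an mRNA or hold back its translation. HuR binds them and as a rule stabilises the mRNA. The ZFP36 family, AUF1 and KSRP bind similar elements and deliver the mRNA to deadenylases and the exosome, while TIA1 and TIAR silence translation, so the outcome for an mRNA depends on which protein sits on it.

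The members' own mouse mRNAs carry such elements, and their sites are shown because they set the ZFP36 family apart from the other members. The sequences are from GENCODE M21 transcripts (build GRCm38), taking for each gene the longest coding transcript in the basic set. The gene identifiers of all 9 matched those of the deposited mouse table. The heptamer TATTTAT, the core of the site bound by the ZFP36 proteins, occurred in 27.4% of 20996 mouse 3′UTRs and in 7 of the 9 members. Each of the 3 ZFP36 family genes held 3 copies, and none of the other 6 members held more than 1. Below are a Zfp36 site, a Zfp36l1 site and a Zfp36l2 site, then those of Tia1, Tial1, Celf1 and Pum2, written as the DNA of the sense strand with the heptamer in capitals and 10 bases on each side.
Zfp36 (chr7:28376952-28376978, minus strand): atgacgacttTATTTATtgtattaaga
Zfp36l1 (chr12:80108168-80108194, minus strand): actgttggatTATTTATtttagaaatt
Zfp36l2 (chr17:84184915-84184941, minus strand): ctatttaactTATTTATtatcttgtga
Tia1 (chr6:86430468-86430494, plus strand): agatacaatgTATTTATttaaaagatt
Tial1 (chr7:128442424-128442450, minus strand): aaaatgaaaaTATTTATtttaaaaatt
Celf1 (chr2:91015316-91015342, plus strand): gggtggagaaTATTTATtacctaaatt
Pum2 (chr12:8749817-8749843, plus strand): aaagcaaaacTATTTATtgactttctt

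At least 3 heptamers occurred in 1.45% of 3′UTRs within 10% of the 774 bases of Zfp36, in 4.71% of those near the 1835 bases of Zfp36l1, and in 4.81% of those near the 1822 bases of Zfp36l2. For the other 4 members with 1 copy, between 52.1% and 72.8% of 3′UTRs of like length held at least 1. Hnrnpd and Khsrp had no heptamer in 5429 and 1642 bases, which says only that these letters are absent from that window. The shorter pentamer ATTTA, which lies inside the heptamer, was present in all 9 members and in 64.6% of all mouse 3′UTRs, so it does not separate the members from other genes.

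Other motifs were more scattered. Runs of 7 T were found in 8 of the 9 members and 38.5% of all 3′UTRs, with overlapping matches counted, and were most numerous in Tial1 (27) and Khsrp (22). For the 8 members, 51.9% to 90.7% of 3′UTRs of like length held such a run. At least as many as in Tial1 and Khsrp occurred in 1.97% and 1.43%. The Pumilio element TGTANATA was found in Pum2 and Tial1, against 23.2% of all 3′UTRs and 43.8% and 43.5% of those of like length. Pum2 itself held 2 of them, shown here with the element in capitals.
Pum2, first element (chr12:8750155-8750182, plus strand): tttatagagaTGTATATAgaattatagt
Pum2, second element (chr12:8750408-8750435, plus strand): tgtacagaatTGTATATActtataattg
The GU-rich heptamer TGTTTGT, a site of CELF1, was found in Hnrnpd (4), Celf1 (3) and Pum2 (1) and in 25.3% of all 3′UTRs. Among 3′UTRs of like length, 76.4%, 80.6% and 51.5% held at least 1. Only the sense strand was searched, and a match is a description of letters, not a bound site.

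Levels are given as TPM, a read count scaled by gene length and by the total of the library. Differences between HuR KD and LacZ are differences of mean log2(TPM + 1), tested with limma over every gene with a mean of at least 1 TPM. All 9 members and HuR passed that filter in both sets. A gene was called when its unadjusted limma p was under 0.05, and the Benjamini-Hochberg adjusted p over all genes tested is the p printed, so a called gene can have a large adjusted p. Nothing states that livers of a group came from separate litters or batches, so p-values measure the spread between these livers.

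The livers differed in depth and makeup. Reads recovered from the TPM steps ranged from 2670469 to 20302454 per humanized library and from 1423985 to 44668272 per WT library, and the fewest reads behind a member's value were 26 (ZFP36, humanized) and 19 (Tia1, WT LacZ 2). Humanized HuR KD 4 and humanized LacZ 2 were by far the deepest of their set, with 20302454 and 19891555 reads against at most 8342241. Their deviations from the mean of each gene over all humanized livers correlated across genes at r = 0.57. In the WT set LacZ 2 was the shallowest and HuR KD 6 the shallowest of the KD group, with 12960373 reads. Of 12 macrophage markers, 6 were at 0 in all humanized livers (C1QA, C1QB, CLEC4F, MARCO, TYROBP and VSIG4), and the summed level came mainly from LYZ. Endothelial, B cell and neutrophil markers summed to at most 1.25 TPM in any humanized liver. Albumin led the hepatocyte markers in both sets. In whole tissue, fewer cells of a type and less RNA per cell cannot be told apart.

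HuR itself was lower in every KD liver than in any LacZ liver of its set. Human ELAVL1 read 4.05, 2.37, 3.54 and 3.90 TPM in the KD livers and 5.76, 4.77, 6.17 and 5.99 TPM in the LacZ livers, a difference of −0.59 ± 0.17 (SE) on the log2 scale, with a limma adjusted p of 0.214. Mouse Elavl1 ranged from 3.72 to 5.62 TPM (median 4.97) after KD and from 8.58 to 10.7 TPM (median 9.49) with LacZ, a difference of −0.83 ± 0.09 and a limma adjusted p of 0.00105. Mean HuR mRNA in the KD livers was 61.0% of control in the humanized set and 51.7% in the WT set. The interaction between set and knockdown was 0.24 ± 0.17 for HuR (limma adjusted p = 0.477). It was called with median-of-ratios factors at 0.32 (limma adjusted p = 0.217), with quantile normalization at 0.31 (limma adjusted p = 0.218) and without humanized HuR KD 2 at 0.37 (limma adjusted p = 0.209).

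None of the 9 members was called in either set, with the unadjusted or the adjusted p. In the humanized livers 11.5% of 12738 genes tested were called, and 0.212% with the adjusted p. In the WT livers 16.0% of 15090 genes were called, and 0.888% with the adjusted p. No member had groups that did not overlap, against 7.16% of all genes in the humanized set and 2.49% in the WT set. In the humanized livers 4 members lay above 0 and 5 below, with a median difference of −0.00082 beside −0.05 over all genes. In the WT livers all 9 lay above 0, between 0.02 and 0.16, with a median of 0.10 beside 0.03 over all genes, of which 56.8% lay above 0. Tia1 turned to −0.01 under quantile normalization and to −0.00090 with voom on recovered reads.

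**Figure D1:**
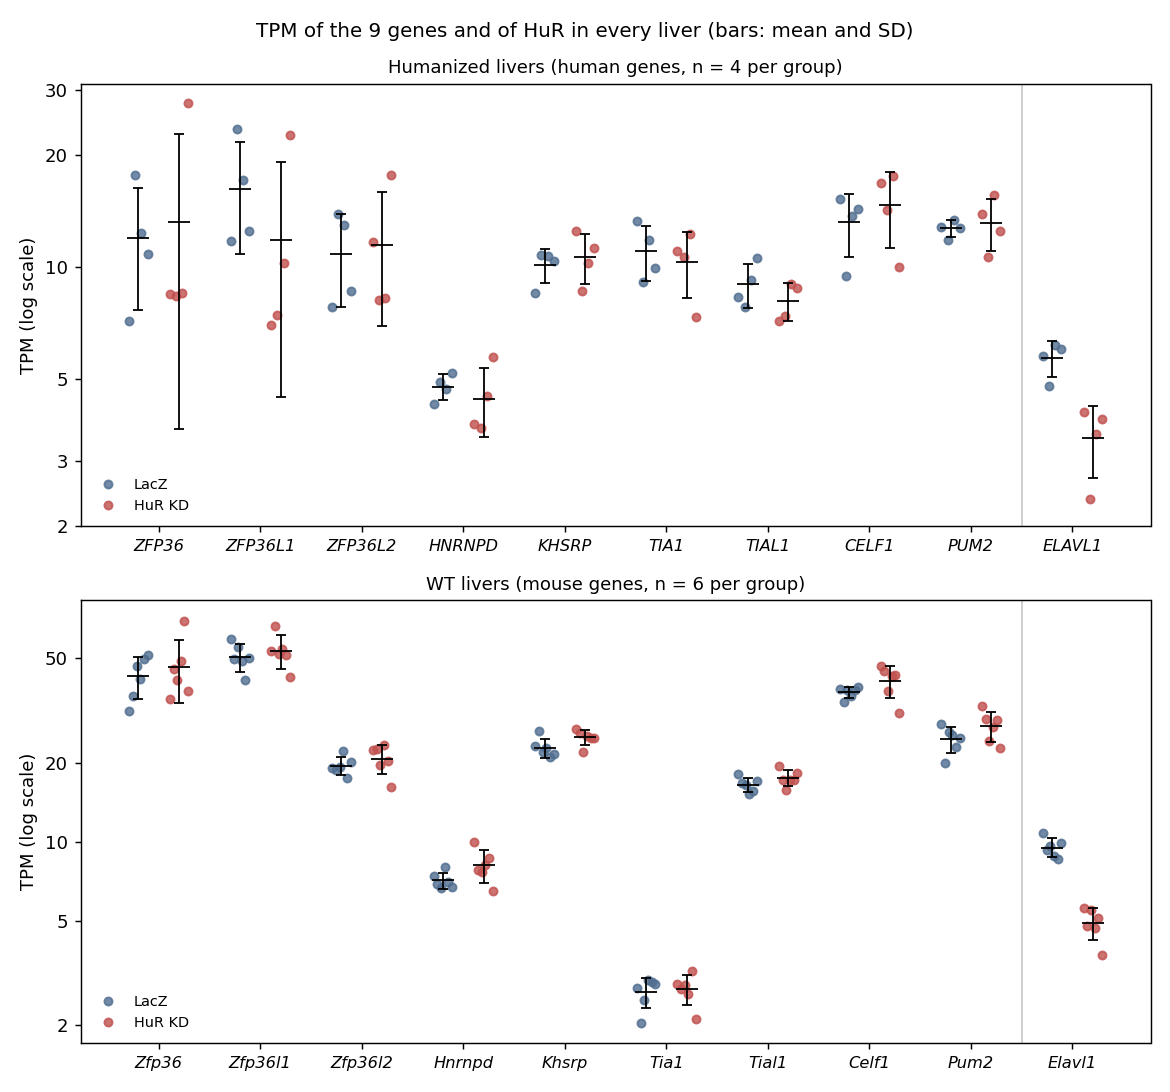
TPM of each gene in every liver, on a log axis, with the mean and SD of each group, for the humanized set (top, 4 livers per group) and the WT set (bottom, 6 per group). The HuR groups at the right are apart in both sets, while the KD and LacZ points of the 9 other genes overlap, and the human ZFP36 family spans the widest range.

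The ZFP36 family was the most abundant group of the 9 genes in mouse liver. ZFP36 (tristetraprolin) recruits the CCR4-NOT deadenylase and is an immediate early gene that represses its own mRNA. Human ZFP36 read 8.44, 8.34, 8.52 and 27.6 TPM in the KD livers and 7.16, 17.7, 12.3 and 10.9 TPM in the LacZ livers. HuR KD 4 stood far above the other KD livers, which lay close together and inside the LacZ range. The difference was −0.00082 ± 0.39, and its 95% interval reached from 54.2% to 184% of control on the TPM + 1 scale, so a change of either sign of that size was not detectable here. Mouse Zfp36 (chr7:28376784-28380253) ranged from 35.0 to 69.4 TPM (median 43.3) after KD and from 31.5 to 51.1 TPM (median 44.1) with LacZ, a difference of 0.10 ± 0.16.

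ZFP36L1 (BRF1), a second member of the family, had the smallest p of the 9 in the humanized livers. It read 6.96, 7.42, 10.3 and 22.7 TPM in the KD livers and 11.8, 23.5, 17.2 and 12.5 TPM in the LacZ livers. In 3 of 4 KD livers it was below every LacZ liver, and HuR KD 4 was near the top of the LacZ range. The difference was −0.53 ± 0.36, with limma p = 0.173, adjusted p = 0.633 and an exact two-sided permutation p of 0.257. Without HuR KD 4 it was −0.87, and ZFP36L1 was then called (limma adjusted p = 0.199). Without LacZ 2, the other of the 2 deepest libraries, it was −0.34 and was not called. With both of the deepest libraries left out it was −0.68 (limma adjusted p = 0.176), an alternative added after seeing the data. Mouse Zfp36l1 (chr12:80107754-80113013) ran from 42.3 to 66.4 TPM (median 52.3) after KD and from 41.1 to 59.1 TPM (median 49.6) with LacZ, a difference of 0.07 ± 0.10 that was not called under any alternative.

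ZFP36L2 (BRF2), the third member of the family, read 11.6, 8.13, 8.24 and 17.7 TPM in the humanized KD livers and 7.80, 13.9, 13.0 and 8.63 TPM in the LacZ livers. The groups overlapped, with HuR KD 4 above every LacZ liver, and the difference was 0.05 ± 0.27. It was −0.17 without HuR KD 4 and 0.17 without HuR KD 2. Mouse Zfp36l2 (chr17:84183931-84187947) ranged from 16.1 to 23.3 TPM after KD (median 21.3) and from 17.4 to 22.0 TPM with LacZ (median 19.1), a difference of 0.08 ± 0.09.

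In humanized HuR KD 4 and LacZ 2, all 3 family members were above each of the other 6 livers. ZFP36 read 27.6 and 17.7 TPM there against 7.16 to 12.3 TPM elsewhere, ZFP36L1 22.7 and 23.5 TPM against 6.96 to 17.2 TPM, and ZFP36L2 17.7 and 13.9 TPM against 7.80 to 13.0 TPM. Among all genes tested, 7.14% had both of these livers above the other 6. CELF1 went the other way, with 9.97 and 9.44 TPM against 13.7 to 17.6 TPM, and so did TIA1, with 7.34 and 9.11 TPM against 9.93 to 13.3 TPM. Both livers lay below the other 6 for 1678 of the 12738 genes. These are the deepest libraries of the set. Their summed macrophage markers were 67.6 and 143 TPM, the highest of their groups, and their hepatocyte markers 42706 and 45766 TPM, the lowest. The part of depth, cell makeup or the liver of origin in these levels was not tested. Within the other 6 livers, ZFP36L1 did not overlap between KD (6.96 to 10.3 TPM) and LacZ (11.8 to 17.2 TPM), as was so for 21.3% of all genes with 3 livers against 3. In the same 6 livers 3 sums of marker genes were also lower after KD without overlap, while the sums of the remaining marker lists overlapped. The macrophage list, mainly LYZ, read 7.25 to 11.1 TPM after KD against 21.2 to 53.8 TPM with LacZ. The cholangiocyte list read 5.26 to 8.68 against 11.5 to 44.4 TPM. The stellate cell and fibroblast list read 3.12 to 5.68 against 6.76 to 7.81 TPM. These are sums of human genes, while the non-parenchymal cells of these livers are those of the host. Which cells hold these mRNAs, and their part in the level of ZFP36L1, was not tested.

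**Figure D2:**
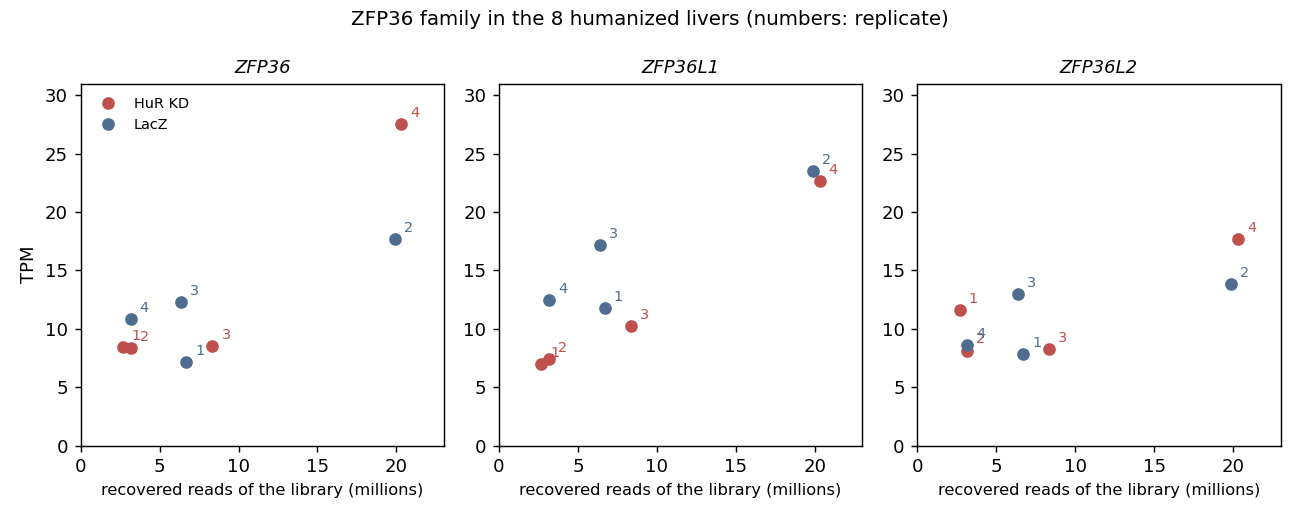
TPM of ZFP36, ZFP36L1 and ZFP36L2 (left to right) against the recovered reads of the library in the 8 humanized livers, with the replicate number beside each point. HuR KD 4 and LacZ 2, at the right of each panel, hold the top values of all 3 genes, and among the other livers the ZFP36L1 points of KD lie below those of LacZ.

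HNRNPD (AUF1) and KHSRP (KSRP) are also decay-promoting members. KSRP also takes part in microRNA maturation. Human HNRNPD read 3.77, 3.68, 4.48 and 5.71 TPM in the KD livers and 4.27, 4.88, 4.68 and 5.18 TPM in the LacZ livers. The groups overlapped, and the difference was −0.10 ± 0.16. Human KHSRP read 12.5, 8.60, 10.3 and 11.2 TPM after KD and 8.51, 10.8, 10.7 and 10.3 TPM with LacZ. Here 2 of 4 KD livers were above every LacZ liver, and the difference was 0.07 ± 0.15.

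In the WT livers these were the members with the smallest p. Khsrp (chr17:57021051-57031522) ranged from 22.0 to 26.8 TPM after KD (median 25.0) and from 20.95 to 26.3 TPM with LacZ (median 22.3). In 5 of 6 KD livers it was above the LacZ median, and the highest LacZ value was that of the shallow LacZ 2. The difference was 0.13 ± 0.07, or 98.9% to 121% of control, with limma p = 0.0769, adjusted p = 0.381 and an exact two-sided permutation p of 0.0649. Without LacZ 2 it was 0.17 and was called (limma adjusted p = 0.160), as it also was without HuR KD 3, at 0.16 (limma adjusted p = 0.217). Hnrnpd (chr5:99955935-99978938) ranged from 6.51 to 10.003 TPM after KD (median 7.98) and from 6.67 to 7.98 TPM with LacZ (median 6.97). The difference was 0.16 ± 0.09, with limma p = 0.0832, adjusted p = 0.396 and an exact two-sided permutation p of 0.0758. It was called without HuR KD 6, at 0.22 (limma adjusted p = 0.144).

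TIA1 and TIAL1 (TIAR) are related proteins that block translation and gather in stress granules. Human TIA1 read 11.1, 10.6, 12.3 and 7.34 TPM in the KD livers and 13.3, 9.11, 11.8 and 9.93 TPM in the LacZ livers, a difference of −0.10 ± 0.18. Human TIAL1 read 7.15, 7.38, 9.01 and 8.79 TPM after KD and 8.29, 7.78, 9.22 and 10.6 TPM with LacZ, a difference of −0.13 ± 0.14. For TIAL1, 2 KD livers were below every LacZ liver and the other 2 lay inside the LacZ range. Mouse Tia1 (chr6:86404219-86433405) stayed between 2.12 and 3.21 TPM after KD and between 2.05 and 2.97 TPM with LacZ, a difference of 0.02 ± 0.10. Mouse Tial1 (chr7:128439777-128461717) ranged from 15.7 to 19.4 TPM and from 15.2 to 18.0 TPM, a difference of 0.08 ± 0.06. Its SD within groups was at the 4.83 percentile of all WT genes tested, so few genes gave a tighter estimate.

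The balance of these 2 proteins' mRNAs differed between the tables. The ratio of TIA1 to TIAL1 TPM was 1.25 ± 0.276 (SD, n = 4) in the humanized LacZ livers and 1.296 ± 0.317 (n = 4) after KD. In the WT livers it was 0.163 ± 0.0265 (n = 6) with LacZ and 0.158 ± 0.0253 (n = 6) after KD. No humanized liver was below 0.835 and no WT liver above 0.196. In recovered reads, which carry no length scaling, the ratio was 0.750 to 1.44 in humanized livers and 0.266 to 0.446 in WT livers. The tables were made from different annotations and libraries, so species and table cannot be told apart.

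CELF1 and PUM2 bind other elements. CELF1 binds GU-rich sequences and promotes deadenylation, besides its part in splicing, and PUM2 binds the Pumilio element. Human CELF1 read 16.8, 14.2, 17.6 and 9.97 TPM in the KD livers and 15.2, 9.44, 13.7 and 14.3 TPM in the LacZ livers, a difference of 0.13 ± 0.21. Human PUM2 read 13.9, 10.6, 15.6 and 12.5 TPM after KD and 12.8, 11.8, 13.4 and 12.7 TPM with LacZ, a difference of 0.04 ± 0.14. For PUM2 the KD livers straddled the narrow LacZ range on both sides.

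Mouse Celf1 (chr2:90940382-91019497) ranged from 30.8 to 46.7 TPM after KD (median 43.0) and from 33.9 to 38.7 TPM with LacZ (median 37.8). In 4 of 6 KD livers it was above every LacZ liver, while HuR KD 6 was below all of them. The difference was 0.13 ± 0.09 (limma adjusted p = 0.538), and without HuR KD 6 it was 0.21 and was called (limma adjusted p = 0.0910). Mouse Pum2 (chr12:8674134-8752581) ranged from 22.7 to 32.8 TPM after KD (median 28.1) and from 19.9 to 28.0 TPM with LacZ (median 25.2), a difference of 0.16 ± 0.10 (limma adjusted p = 0.478). Without HuR KD 6, Pum2 and Zfp36l2 were called too, at 0.21 (limma adjusted p = 0.248) and 0.15 (limma adjusted p = 0.260), which makes 4 members in all. Over all genes, 2856 of 15124 were called without that liver, against 2418 of 15090 with it.

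**Figure D3:**
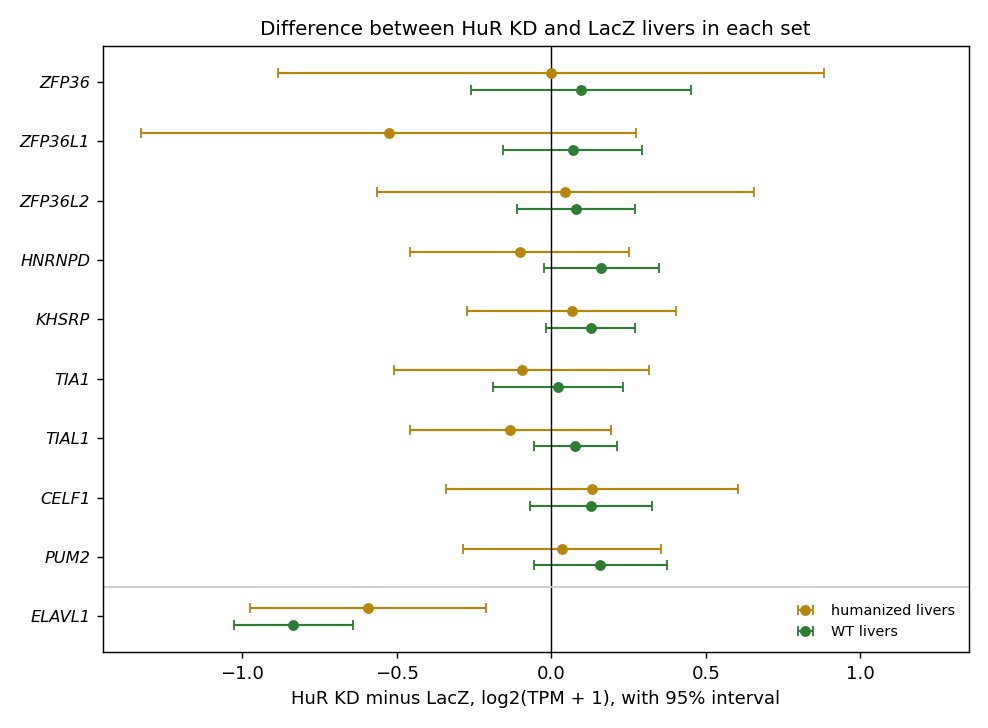
HuR KD minus LacZ on the log2(TPM + 1) scale with its 95% limma interval, for the humanized livers and the WT livers. The intervals of the 9 genes include 0 in both sets, those of ELAVL1 do not, and the intervals of the human ZFP36 family are the widest.

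The interaction between set and knockdown was tested over 8202 genes matched by symbol. None of the 9 members was called, against 19.7% of the gene pairs, or 5.01% with the adjusted p. ZFP36L1 came nearest, with a human minus mouse difference of −0.60 ± 0.32 (limma adjusted p = 0.324). Without humanized HuR KD 4 it was −0.94 (limma adjusted p = 0.0193), and without both of the deepest libraries −0.75 (limma adjusted p = 0.0218). Without humanized LacZ 2 it was −0.41 (limma adjusted p = 0.461). In these alternatives, in that order, 630 of 8209, 967 of 8213 and 835 of 8210 pairs had an adjusted p under 0.05. With all livers 411 of 8202 had one. HNRNPD was next, at −0.26 ± 0.16 (limma adjusted p = 0.390). It was called without humanized HuR KD 4, at −0.37 (limma adjusted p = 0.142), and without WT HuR KD 6, at −0.32 (limma adjusted p = 0.215). Without both of the deepest libraries HNRNPD was called at −0.36 (limma adjusted p = 0.150) and TIAL1 at −0.31 (limma adjusted p = 0.172).

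In order of level, ZFP36L1 led both sets with LacZ. WT livers ran from Zfp36l1 at 50.4 ± 6.10 TPM (SD, n = 6), Zfp36 at 42.7 ± 7.87, Celf1 at 37.0 ± 1.81, Pum2 at 24.5 ± 2.83, Khsrp at 22.7 ± 1.91, Zfp36l2 at 19.4 ± 1.54, Tial1 at 16.5 ± 1.01 and Hnrnpd at 7.12 ± 0.493 to Tia1 at 2.68 ± 0.355 TPM. Elavl1, at 9.50 ± 0.789 TPM, stood between Tial1 and Hnrnpd. By an exact two-sided sign-flip test over 6 livers, whose smallest p is 0.0312, the neighbours Zfp36l1 and Zfp36, Zfp36 and Celf1, and Pum2 and Khsrp did not differ beyond their spread (adjusted exact p of at least 0.161). The other 6 neighbouring pairs kept their order in 6 of 6 livers, with an adjusted exact p of 0.0469.

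The humanized order was ZFP36L1 (16.2 ± 5.42 TPM, SD, n = 4), CELF1 (13.2 ± 2.56), PUM2 (12.7 ± 0.647), ZFP36 (12.0 ± 4.35), TIA1 (11.03 ± 1.88), ZFP36L2 (10.8 ± 3.04), KHSRP (10.1 ± 1.07), TIAL1 (8.97 ± 1.23) and HNRNPD (4.75 ± 0.381), with ELAVL1 (5.67 ± 0.623) above HNRNPD. With 4 livers the exact sign-flip test cannot go below p = 0.125, so no pair of neighbours could be told apart. TIAL1 was above ELAVL1 in 4 of 4 livers.

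The summed level of the 9 genes overlapped between KD and LacZ livers in both sets. It was 223 ± 9.31 TPM in WT LacZ livers and 242 ± 25.2 TPM after KD (SD, n = 6 each), and 99.8 ± 9.27 TPM and 97.7 ± 18.7 TPM in the humanized livers (n = 4 each). HuR amounted to 4.26 ± 0.298% of that sum in WT LacZ livers and 2.04 ± 0.268% after KD, with groups that did not overlap. In the humanized livers it amounted to 5.74 ± 0.945% and 3.56 ± 0.631%, and the highest KD liver, at 4.40%, was level with the lowest LacZ liver, at 4.39%. The ZFP36 family made up 50.4 ± 1.45% of the sum in WT LacZ livers and 38.6 ± 9.02% in humanized LacZ livers.

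**Figure D4:**
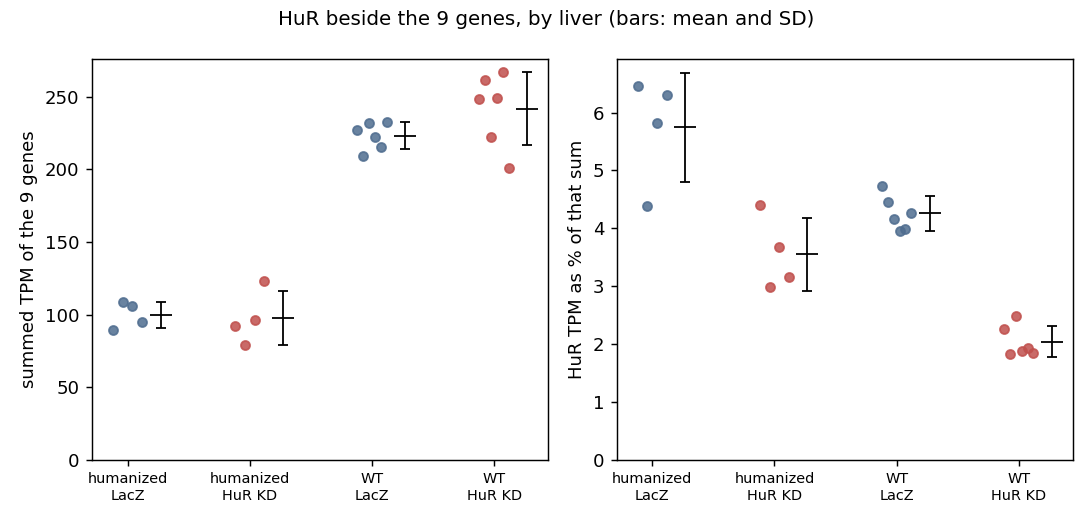
Summed TPM of the 9 genes (left) and HuR TPM as a percentage of that sum (right) in every liver, with the mean and SD of each group. The sums overlap between KD and LacZ in both sets, and the HuR percentage is lower after KD, without overlap in the WT livers.

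The genes whose pattern over livers was most like that of ZFP36L1 in the 8 humanized livers, by root mean square difference of centred log2(TPM + 1), were TTC39C (0.127), VSTM4 (0.130) and BNIP3L (0.134), where the median over all genes was 0.659. For Khsrp in the 12 WT livers they were H2afy (0.0445), Tnfaip1 (0.0471) and Eif3c (0.0510), with a median over all genes of 0.225.

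Genes of the machinery to which these proteins hand mRNAs were counted from lists. Over all genes tested in the WT livers, 9.09% were called higher and 6.94% lower, and the median difference was 0.03. Among humanized livers these values were 3.60%, 7.87% and −0.05. Of 15 exosome and SKI complex genes tested, 5 rose in the WT livers and none fell, with a list median of 0.11. Among them were Exosc10, the nuclear exosome nuclease, at 0.31 ± 0.07 (limma adjusted p = 0.0550), and Exosc2, a cap subunit, at 0.37 ± 0.10 (limma adjusted p = 0.108). In the humanized livers 1 rose and 2 fell, with a median of −0.15. EXOSC5, a core subunit, went from 8.82 ± 1.94 to 5.05 ± 1.11 TPM (SD, n = 4), a difference of −0.70 ± 0.19 with groups that did not overlap (limma adjusted p = 0.185). WDR61 fell by 0.42 (limma adjusted p = 0.390), a call lost under all 3 other scalings. EXOSC2, EXOSC5 and EXOSC10 each had a difference between sets, with limma adjusted interaction p of 0.0211, 0.0148 and 0.0259.

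Of the deadenylase list, CNOT7, a catalytic subunit of CCR4-NOT, was the gene called in the humanized livers, where 1 of 17 was called. It went from 11.8 ± 0.654 to 6.85 ± 1.48 TPM, a difference of −0.73 ± 0.16 with groups that did not overlap (limma adjusted p = 0.108), and the interaction was −0.77 (limma adjusted p = 0.0123). In WT livers 3 of 19 were called, with Cnot1, the scaffold, up by 0.20 (limma adjusted p = 0.173) and Tob2, an adaptor that brings CCR4-NOT to mRNAs, down by 0.41, from 25.2 ± 3.17 to 18.7 ± 2.27 TPM (limma adjusted p = 0.0637). Of the decapping and 5′ decay genes, 0 of 15 were called in humanized livers and 1 of 18 in WT livers, where Dcp2, the decapping enzyme, fell by 0.24 on the log2 scale (limma adjusted p = 0.216). The list medians were −0.05 and 0.05 for the deadenylases and −0.07 and 0.07 for decapping.

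Stress granule genes rose in 5 of 12 cases in WT livers, none fell, and the list median was 0.11, beside 9.09% called higher and a median of 0.03 over all genes. Pabpc1, the cytoplasmic poly(A)-binding protein, went from 39.6 ± 3.85 to 56.5 ± 9.76 TPM, a difference of 0.49 ± 0.11 (limma adjusted p = 0.0545), and Atxn2 rose by 0.17 (limma adjusted p = 0.178). The granule nucleator G3bp1 rose by 0.25 (limma adjusted p = 0.180). In the humanized livers 1 of 12 was called, with a list median of −0.14, and it was G3BP1 itself, which fell from 18.3 ± 2.52 to 12.9 ± 1.99 TPM (limma adjusted p = 0.292). The interaction of G3BP1 was −0.72 (limma adjusted p = 0.0130).

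Among 21 other AU- or U-rich element binding proteins tested in humanized livers, 2 fell and none rose, with a median of −0.07, and among 23 in WT livers 2 rose and none fell, with a median of 0.03. PCBP1, a poly(C)-binding protein, was called in both sets with opposite signs, −0.37 ± 0.14 in humanized (limma adjusted p = 0.337) and 0.18 ± 0.07 in WT livers (limma adjusted p = 0.215), and the interaction was −0.55 (limma adjusted p = 0.0204). HNRNPA1 was lower in humanized livers by −0.39 (limma adjusted p = 0.401), and both humanized calls of this list were lost under the 3 other scalings. Hnrnpdl, the closest relative of AUF1, was higher in WT livers by 0.27 ± 0.09 (limma adjusted p = 0.179).

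The next list covered the kinase axis that inactivates ZFP36, namely p38, MK2 and the 14-3-3 proteins that hold the phosphorylated form. It also held DUSP1, a phosphatase that acts against p38. Limma called 1 of 12 genes of this list in humanized livers and 0 of 13 in WT livers, with list medians of −0.11 and 0.07. YWHAZ, a 14-3-3 protein, fell from 27.7 ± 2.08 to 17.5 ± 1.55 TPM in humanized livers, a difference of −0.63 ± 0.12 with groups that did not overlap (limma adjusted p = 0.0897). In WT livers Ywhaz was 29.6 ± 2.64 TPM after KD and 31.3 ± 1.96 TPM with LacZ, and the interaction was −0.56 (limma adjusted p = 0.0126).

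Of mRNAs known as targets of the ZFP36 proteins, AUF1 or KSRP, 2 of 18 rose in humanized livers and none fell, with a median of 0.03. In WT livers 1 of 24 rose and 2 fell, with a median of −0.07. These shares called, 11.1% and 12.5%, were no larger than the 11.5% and 16.0% of all genes. CCND1 (cyclin D1) was called in both sets with opposite signs. It went from 45.5 ± 12.6 to 66.5 ± 7.05 TPM in humanized livers, a difference of 0.58 ± 0.21 (limma adjusted p = 0.327), and from 8.01 ± 1.44 to 5.70 ± 1.25 TPM in WT livers, a difference of −0.43 ± 0.13 (limma adjusted p = 0.143). The interaction was 1.01 (limma adjusted p = 0.0149). CDKN1A (p21) rose by 0.81 ± 0.32 in humanized livers (limma adjusted p = 0.376), and Nfkbia, the inhibitor of NF-kappa-B, fell by 0.29 on the log2 scale in WT livers (limma adjusted p = 0.159).

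With the 2 deepest humanized libraries left out, 3 deadenylase genes and 3 of the other element-binding proteins were called in place of 1 and 2, all lower, and 3 genes of the p38 axis, all lower, in place of 1. With the shallowest library of each WT group left out, 7 exosome genes rose in place of 5, and 3 genes of the p38 axis were called in place of 0, 1 higher and 2 lower. Calls over all genes grew too in these alternatives. They went from 1461 of 12738 to 2011 of 12826 in humanized livers. In WT livers they went from 2418 of 15090 (1371 higher) to 3499 of 15082 (2323 higher). With the shallowest WT libraries left out, the median of the targets turned from −0.07 (24 genes tested) to 0.03 (25 genes) in WT livers. With the 2 deepest humanized libraries left out, it turned from 0.03 (18 genes) to −0.10 (17 genes) in humanized livers. The genes tested thus differed between these settings. Under the 3 other scalings of the humanized libraries the list medians of the deadenylases were 0.03, 0.02 and 0.03 and that of the targets was 0.11, 0.10 and −0.03, for median-of-ratios factors, quantile normalization and protein-coding genes only, while the median of all genes was 0.01 under each. The decapping and other-binder medians lay between −0.03 and 0.01, and the p38 axis then had 2 genes called, both lower. In WT livers the p38 axis had 1 gene called, higher, with median-of-ratios factors and with protein-coding genes only. With protein-coding genes only, 21 targets were tested in humanized livers in place of 18, and 25 in WT livers in place of 24. The signs of the exosome, stress granule and p38 medians in humanized livers, and of all 7 list medians in WT livers, held under these scalings. Without these changes of scaling or libraries, no list held a gene with an adjusted p under 0.05 in either set. Among the named genes, WT Pabpc1 had a limma adjusted p of 0.0379, 0.0347 and 0.0352 under the 3 other scalings. Exosc10 had 0.0361 with protein-coding genes only. With the shallowest WT libraries left out, the limma adjusted p was 0.0238 for Tob2, 0.0243 for G3bp1, 0.0408 for Exosc2 and 0.0422 for Exosc10.

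**Figure D5:**
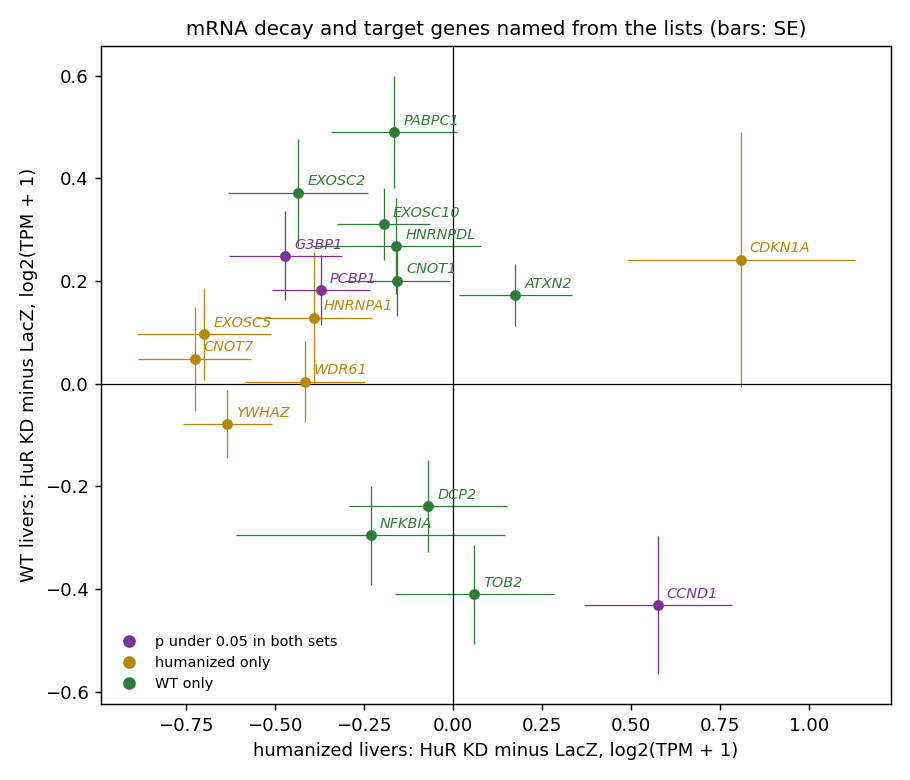
HuR KD minus LacZ on the log2(TPM + 1) scale in humanized livers (x axis) against WT livers (y axis) for the 18 named genes of the decay, binding and target lists, with SE bars and colours for the set in which the unadjusted p was under 0.05. G3BP1 and PCBP1 lie at upper left and CCND1 at lower right, the 3 genes called in both sets with opposite signs.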

How the data were processed

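Liver RNA from 20 mice was sequenced by the study as paired, strand-specific total RNA libraries. The submitters' processing notes name Trim Galore for trimming and the study's methods name cutadapt. Per these sources, reads were aligned with HISAT2 (humanized livers to a joint human and mouse index, GENCODE v32 and M23, builds GRCh38 and mm10) and counted with featureCounts of Subread. The authors deposited TPM per gene and library; the gene lengths, the TPM formula and whether counting used strand are not given in the sources used here.

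Each set was fitted separately with limma 3.58.1 (R 4.3.3, lmFit and eBayes with trend, two-sided) on log2(TPM + 1), keeping genes with a mean of at least 1 TPM. A fold on this scale understates the change of low genes. Whole reads were recovered from the TPM steps for 100.0% of the genes tried in each set and used for depth and a voom alternative. Single genes were also tested by exact permutation over 70 (humanized) or 924 (WT) groupings, whose smallest p are 0.0286 and 0.00216. The scripts were tested on simulated data.

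The members and gene lists were chosen with earlier results of these data known. Named from each list were genes called in both sets and the 2 called genes with the smallest p in each set; for the member with the smallest p in each set, the 3 genes most alike. Alternatives covered the pseudocount, filter, scaling, variance model, replicate block, counts and each liver left out. A gene of the lists is not reported here and was left out of its list. Human coordinates and sequences were not used here.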

Additional observations from a re-analysis of the deposited data

Results flagged for a closer look

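Of 40 groups examined (10 genes in 4 groups), 1 held a liver far from the rest: ZFP36 in humanized HuR KD 4, at 27.6 TPM, where the next highest KD liver read 8.52 TPM. Chance alone marks about 1 group in 20.

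The effect of HuR KD differed between humanized and WT livers, by a limma interaction with an adjusted p under 0.05, for 8 of the 18 named list genes. The human minus mouse differences on the log2 scale were −0.77 for CNOT7, −0.56 for YWHAZ, −0.72 for G3BP1, −0.80 for EXOSC5, 1.01 for CCND1, −0.55 for PCBP1, −0.81 for EXOSC2 and −0.51 for EXOSC10. These genes had been picked for a call in at least 1 set, and 5.01% of all pairs passed the same test. The median interaction over all pairs was −0.087, with 456 called positive and 1162 negative at an unadjusted limma p under 0.05. With median-of-ratios factors it was −0.008, with 754 and 931. The interactions of the 8 genes were not compared under other scalings.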

How the results depend on the processing

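Counts of members called moved from 0 in several alternatives. In the humanized livers 1 member (ZFP36L1) was called with a block for the 2 deepest libraries and 1 with these libraries left out. In the WT livers 5 were called with array weights, 2 with voom on recovered reads, and 3 with the shallowest library of each group left out. Over all WT genes, 4205 of 15090, 3017 of 15077 and 3499 of 15082 were called in these alternatives, in that order, against 2418 of 15090. For a different effect in the 2 species the count was 1 with array weights, 1 with the block for the 2 deepest libraries and 3 without them. Over all pairs, 1809 of 8202, 1908 of 8202 and 2137 of 8213 were called there, in that order, against 1618 of 8202. Leaving out 1 liver at a time gave 0 to 1 members in humanized livers, 0 to 4 in WT livers and 0 to 2 for the interaction. The cause of these shifts was not tested. The 4 were reached without WT HuR KD 6, where 2856 of 15124 genes were called. The 2 were reached without humanized HuR KD 4, where 1857 of 8209 pairs were called. Array weights gave an adjusted p under 0.05 to 2 WT members, Celf1 (limma adjusted p = 0.0432) and Khsrp (limma adjusted p = 0.0293). They gave it to 1717 of all 15090 WT genes tested, against 134 without them. The alternatives that left out or blocked libraries by depth were chosen after seeing the data. Over all genes, the humanized count of 1461 became 931 with a mean of at least 5 TPM, where fewer genes were tested, and 27 with the adjusted p. It was 2011 with the 2 deepest libraries left out, 1920 with a block for them and 1098 to 1958 with 1 liver left out. Its split of 458 higher and 1003 lower became 817 and 835 with median-of-ratios factors, 778 and 867 with quantile normalization, 735 and 858 over protein-coding genes and 585 and 741 with voom. The WT count of 2418 became 4205 with array weights and 134 with the adjusted p.

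With the replicate number as a block, 0 members were called in either set, 1401 genes were called in humanized and 2242 in WT livers, and 0 and 17 had an adjusted p under 0.05. The numbers were not taken as pairing livers, since livers with the same number correlated in their deviations at −0.25 to 0.14 in humanized and −0.14 to 0.21 in WT livers.

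HuR was called under every alternative in which it was tested. Members with a difference near 0 changed sign. In humanized livers ZFP36 was 0.077 with median-of-ratios factors, 0.066 with quantile normalization, 0.079 over protein-coding genes, 0.029 with array weights and 0.25 with voom, HNRNPD was 0.026 with voom, and ZFP36L2 was −0.050 without the 2 deepest libraries. Mouse Tia1 was −0.013 with quantile normalization and −0.00090 with voom. The interaction of CELF1 was −0.089 with array weights and −0.050 without the shallowest WT libraries. For median-of-ratios factors, quantile normalization and protein-coding genes, that of KHSRP was 0.024, 0.024 and 0.015 and that of ZFP36L2 0.051, 0.045 and 0.040.

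Leaving out 1 liver at a time gave these ranges of the log2 difference in humanized livers: CELF1 −0.0070 to 0.29, KHSRP −0.0087 to 0.16, PUM2 −0.046 to 0.13, TIA1 −0.18 to 0.044, ZFP36 −0.40 to 0.19 and ZFP36L2 −0.17 to 0.17. ZFP36L1 stayed below 0, from −0.87 to −0.34. In WT livers Tia1 ranged from −0.030 to 0.074 and Zfp36 from −0.027 to 0.17. The interaction ranged from −0.137 to 0.164 for CELF1, −0.136 to 0.028 for KHSRP, −0.201 to 0.021 for TIA1, −0.497 to 0.097 for ZFP36 and −0.253 to 0.092 for ZFP36L2.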
